A study of Caenorhabditis elegans with 4 samples.

Results

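The peaks described here lie near the ends of 5 chromosomes of Caenorhabditis elegans and mark binding of ZFP-1 in whole third-stage (L3) larvae. They are the series-list peaks on II, III, IV, V and X whose midpoint lay within 300 kb of base 1 or of the last base covered by any peak on that chromosome. There were 366 of them, out of 11759 series-list peaks on these 5 chromosomes and 13878 in the whole list. The same windows held 115 of the 3559 peaks of ChIP replicate 1 and 183 of the 6371 peaks of ChIP replicate 2. Position alone chose the members, and no score or count entered the choice. The series holds 4 samples in 2 groups of 2, the ZFP-1 immunoprecipitates and the input DNA. All were wild-type N2 worms kept at 20 degrees Celsius, in mixed populations of males and hermaphrodites. The immunoprecipitates were made with a rabbit polyclonal antibody against residues 573 to 867 of ZFP-1. Peak lists of the input DNA are not analysed here, and no value below has an input background beside it. Read depth is unknown, and nothing in the labels says that the replicates came from separate cultures, so differences between them may be technical. Chromatin of whole larvae mixes all tissues, so a site bound in few cells and a site bound weakly in many cannot be told apart.

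ZFP-1 is a nuclear PHD-finger and leucine-zipper protein related to mammalian AF10 (MLLT10). It works with the H3K79 methyltransferase DOT-1.1 at promoters of active genes. The tips of worm chromosomes carry telomeric repeats, and the arms behind them are richer in repeats and in H3K9 methylation than the gene-dense centres. Toward one end of each chromosome lies a meiotic pairing centre, bound by a zinc-finger protein of the ZIM and HIM-8 family, where homologues begin to pair. On X it lies toward the left end and is bound by HIM-8. All positions below are on WormBase WS220, and peaks were assigned to no gene.

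The outermost 300 kb carried more ZFP-1 peaks than the 300 kb behind it at 8 of the 10 ends, and this held in each of the 3 lists. Both exceptions, the left ends of III and X, were the same in the 3 lists. Among all 268 pairs of neighbouring 300 kb windows, the outer one was the higher in 121 (series list), 115 (replicate 1) and 119 (replicate 2). Summed over the 10 ends, the series list held 366 peaks in the end windows and 272 in the next 300 kb, or 122 and 90.7 peaks per Mb. The ratio was 1.35 (95% interval 1.15 to 1.58, exact two-sided binomial test, adjusted p = 0.000717 over 6 tests). Replicate 1 held 115 peaks in the end windows and 65 behind them, a ratio of 1.77 (1.29 to 2.44, exact binomial test, adjusted p = 0.000717). In replicate 2 the end windows had 183 peaks and the next 300 kb had 134, a ratio of 1.37 (1.09 to 1.72, exact binomial test, adjusted p = 0.0139). The direction was the same in both replicates, and the ratio was the larger in replicate 1, the shorter list. These tests count peaks as independent, which they are not, and they do not use the pairing of windows by end. Their intervals leave out the spread between ends, whose series-list ratios ran from 0.15 at X left to 5 at IV right. Of the 268 neighbouring pairs on the 5 chromosomes, 25.0% had an unadjusted exact p under 0.05 in the series list.

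**Figure D1:**
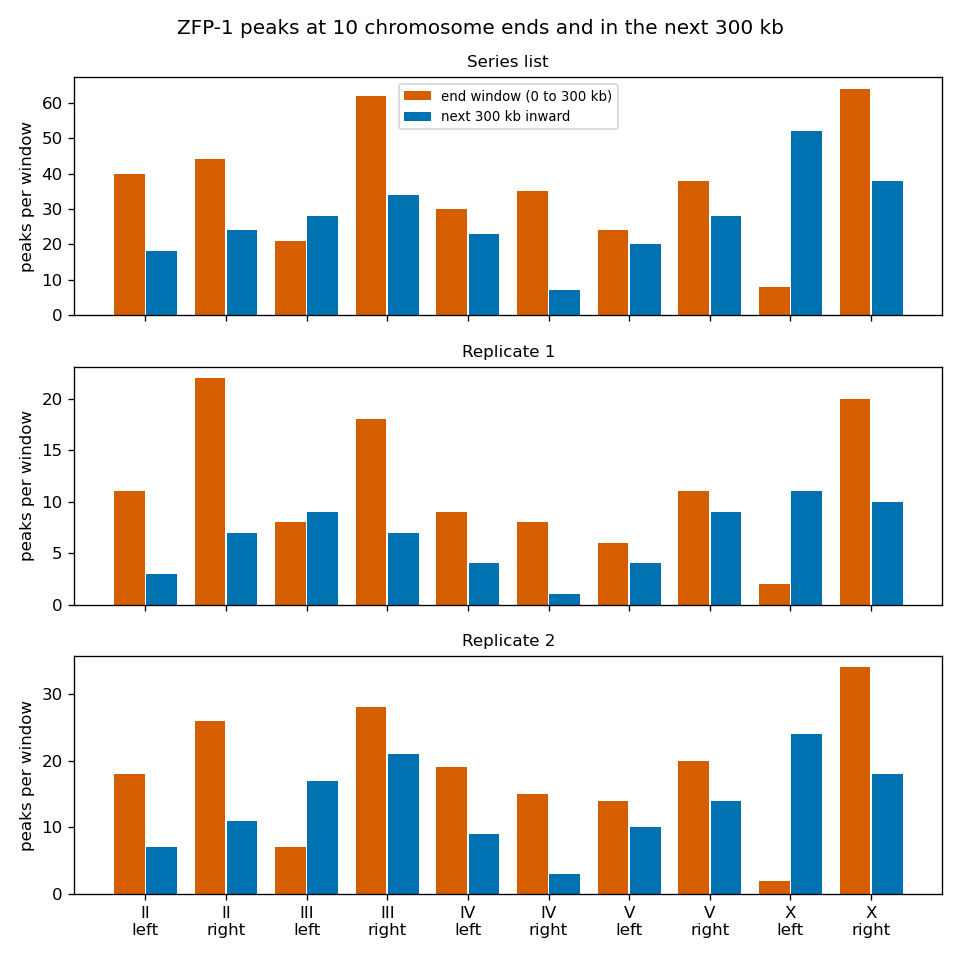
Number of ZFP-1 peaks (vertical axis) in the end window (orange) and in the next 300 kb inward (blue) at each of the 10 chromosome ends (horizontal axis), for the series list and each replicate. Each bar is 1 window, so there is no error bar. The end window is the higher of the pair at 8 ends in every panel, and the left ends of III and X are the exceptions.

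Moving inward in steps of 300 kb, the drop at 300 kb was among the largest in each list, and a drop of similar size lay further in. Of 21 successive steps pooled over the 10 ends, the series list had its largest outer-to-inner ratio at 1500 kb, where 334 peaks faced 232, a ratio of 1.44. The step at 300 kb came next. Both replicates had their largest ratio at 300 kb and the next largest at 1500 kb, with 1.67 in replicate 1 (87 against 52 peaks) and 1.33 in replicate 2 (157 against 118). At 1500 kb the outer window was the higher at 9 (series list), 8 (replicate 1) and 7 (replicate 2) of the 10 ends. At 2700 kb it was the higher at 8, 3 and 7 ends in these lists. No test set the 2 steps against each other, so the excess at the tips is not shown to be particular to them. In the series list the mean of the end windows was no higher than that of all windows from 600 kb to the chromosome middle. End windows averaged 36.6 ± 17.4 series-list peaks (SD, 10 windows), the next 300 kb averaged 27.2 ± 12.3 (SD, 10 windows), and the 258 windows beyond 600 kb averaged 42.0 ± 21.0 (SD). The corresponding means of replicate 1 were 11.5 ± 6.47, 6.50 ± 3.34 and 10.6 ± 5.50, and those of replicate 2 were 18.3 ± 9.58, 13.4 ± 6.59 and 19.2 ± 9.29. Over the outer 3000 kb the end window had the highest mean of the 10 windows in every list, with wide spreads that overlapped.

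**Figure D2:**
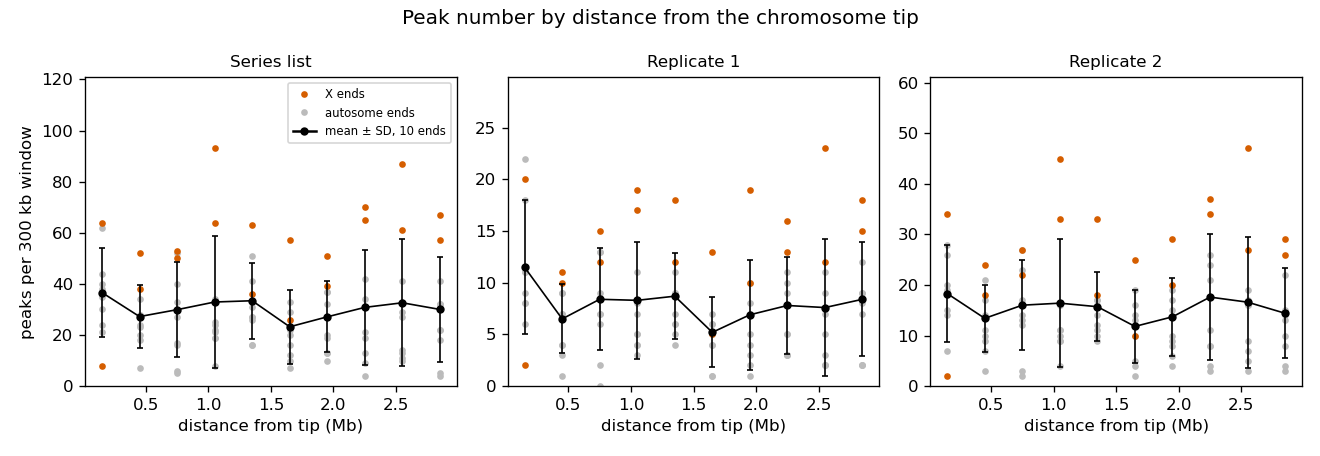
Peaks per 300 kb window (vertical axis) against distance from the chromosome tip in Mb (horizontal axis), for the 10 windows nearest each tip in the series list and each replicate. Dots are single windows, orange for X and grey for the autosomes, and black points with bars are the mean ± SD over 10 ends. The mean starts at 36.6 peaks in the series list, drops to 27.2 in the second window and drops again after 1500 kb.

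Taken 1 at a time, 4 of the 10 ends differed from the next 300 kb in the series list after Benjamini-Hochberg adjustment over all 268 neighbouring pairs, against 13.4% of those pairs as background. Of the 4, the ends of II left, III right and IV right were the higher and X left was the lower, where 6.72% of all pairs were called with the outer window higher and 6.72% with it lower. In replicate 1 the exact test called 0 of the 10 ends, and 0% of the 268 pairs. At an unadjusted exact p under 0.05 it had 4 of the 10 ends, II right, III right and IV right as higher and X left as lower, against 14 of all 268 pairs (5.22%). Replicate 2 called 1 end, X left, which was also the only call among the 268 pairs (0.373%). Its unadjusted exact p was under 0.05 at 5 of the 10 ends, 4 higher and 1 lower, against 32 of the 268 pairs (11.9%).

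The left end of X was nearly bare of ZFP-1 peaks. Its outer 300 kb held 8 series-list peaks, against 52 in the next 300 kb (exact binomial test, adjusted p = 1.40e-06). Replicate 1 had 2 peaks there and 11 behind them (exact binomial test, adjusted p = 0.669), and replicate 2 had 2 and 24 (exact binomial test, adjusted p = 0.00281). Of the 58 windows of 300 kb tiled on X, it was the emptiest in each of the 3 lists, although X is the chromosome with the most peaks per window, with a median of 64 series-list peaks in the 54 windows beyond 600 kb. The peaks that were present were small and weak. Their median width was 234 bp, they covered 0.713% of the window, and the best of them, from 199023 to 199254, scored 24.1 in the series list, where the highest score at every other end was above 100.

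Those 8 peaks were scattered as 8 separate sites, with 1 peak at the tip (1 to 310), and others at 59182 to 59396, 117101 to 117306, 149801 to 150101, 199023 to 199254, 229993 to 230228, 239402 to 239616 and 298896 to 299320. Only the tip peak met a peak in both replicates. Its scores were 4.36 (series list, percentile 9.93), 188 (replicate 1, percentile 47.5) and 63.2 (replicate 2, percentile 6.51). Replicate 1 listed the site near 59 kb (58854 to 61055, score 74.9) and replicate 2 the one near 199 kb (198774 to 199528, score 55.0). The other 5 met no replicate peak. Replicate 2 thus had no peak over 198086 bp, from 688 to 198773, and replicate 1 none from 61056 to the end of the window. The highest-scoring peak of the next 300 kb, on X from 348036 to 348726 scored 174 (series list), 710 (replicate 1) and 2765 (replicate 2).

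**Figure D3:**
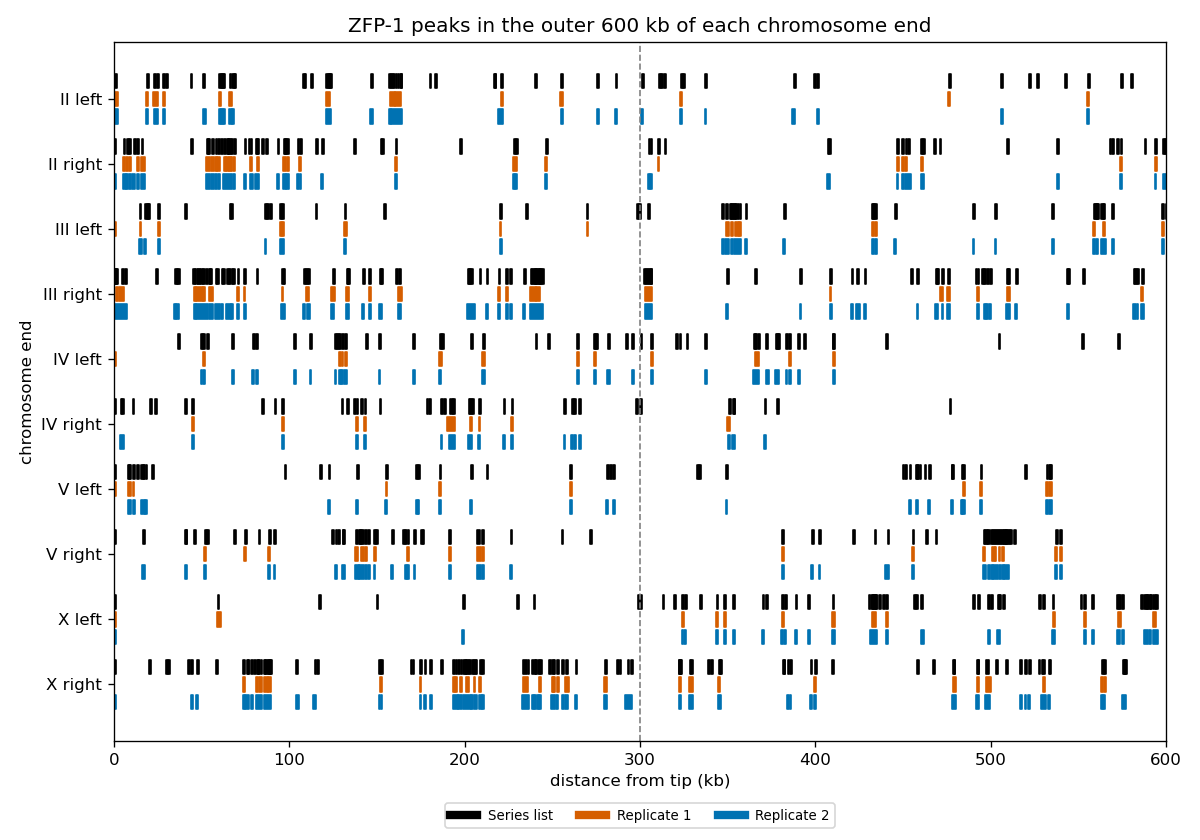
Peaks in the outer 600 kb of each chromosome end, by distance from the tip in kb (horizontal axis), with 1 row per end and 3 tracks per row for the series list (black), replicate 1 (orange) and replicate 2 (blue). Each block is 1 peak, drawn at least 1 kb wide, and the dashed line at 300 kb separates the end window from the next. X left has 8 series-list peaks before the line and 52 after it, while IV right has 35 before and 7 after.

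The right end of X contrasted with the left, though its count was ordinary for X in the series list. It held 64 series-list peaks in the end window, the most of the 10 ends, and 38 in the next 300 kb (exact binomial test, adjusted p = 0.0888). Replicate 1 had 20 and 10 peaks in these windows (exact binomial test, adjusted p = 0.797), and replicate 2 had 34 and 18 (exact binomial test, adjusted p = 0.349). All 3 lists had more peaks in the end window, and none passed the adjusted threshold. The 64 series-list peaks equalled the median of the 54 windows of X beyond 600 kb. Of the 58 windows on X, 29 (series list), 46 (replicate 1) and 44 (replicate 2) held fewer peaks than the end window. The next 300 kb was low for X, with 3, 6 and 2 windows below it in these lists. The left and right ends of X differed in each list. The left and right counts were 8 and 64 in the series list (exact binomial test, adjusted p = 1.80e-10 over all pairs of windows), 2 and 20 in replicate 1 (adjusted p = 0.00783) and 2 and 34 in replicate 2 (adjusted p = 3.79e-06). Of all pairs of 300 kb windows, 50.7% (series list), 6.89% (replicate 1) and 23.2% (replicate 2) were called different. Peaks covered 10.5% of the right window. It also held the widest member, from 17479170 to 17481798 (2629 bp), with a series score of 122 and the score of 3100, at which many peaks are tied, in both replicates. The best-scoring peak met in both replicates was from 17627112 to 17628864, at 154 (series list), 591 (replicate 1) and 3100 (replicate 2). Nearest the tip and met in both was the site from 17640622 to 17641236, 74.0 kb from the last covered base, so the outermost part of this end had no site shared by the 3 lists.

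The ends of chromosome III also differed from each other. The right end held 62 series-list peaks, against 34 in the next 300 kb (exact binomial test, adjusted p = 0.0467), and the left end 21 against 28 (exact binomial test, adjusted p = 0.614). In replicate 1 the right end had 18 peaks against 7 and the left end 8 against 9. In replicate 2 the right end had 28 against 21 and the left end 7 against 17. The left and right ends differed in the series list (21 and 62, exact binomial test, adjusted p = 3.98e-05) and in replicate 2 (7 and 28, adjusted p = 0.00495). In replicate 1 the difference had the same direction (8 and 18) and did not pass (exact binomial test, adjusted p = 0.281). At the right end, replicate 2 covered 20.0% of the window and included the 3 widest replicate 2 peaks of any end, picked out after their widths were seen. These ran from 13761548 to 13768814 (7267 bp, score 2013), from 13524210 to 13531462 (7253 bp, score 3100) and from 13715150 to 13721888 (6739 bp, score 3100). The first reached the last base covered on III, and 5 series-list peaks covering 2662 bp lay in it. The outermost peak of this end met in both replicates, from 13766538 to 13767392, was one of them and scored 21.3 (series list), 164 (replicate 1) and 2013 (replicate 2), while the best-scoring shared peak of this end, from 13672387 to 13672918, scored 162, 527 and 2170 in the same lists.

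The left end of III had few peaks, some of them high-scoring. Its 21 series-list peaks included the highest-scoring member of all 10 ends, from 94668 to 95401, at 199 in the series list (percentile 99.3), 529 in replicate 1 and 3100 in replicate 2. Nearest the tip and met in both replicates was the peak from 14715 to 15555 with a series score of 74.8, a replicate 1 score of 211 and a replicate 2 score of 1124. Of the 21 peaks, 6 met both replicates and 12 met neither.

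At both ends of chromosome II the end window held more peaks than the window behind it in each list. The left end held 40 series-list peaks against 18 behind them (exact binomial test, adjusted p = 0.0467). It had 11 against 3 in replicate 1 (exact binomial test, adjusted p = 0.797) and 18 against 7 in replicate 2 (exact binomial test, adjusted p = 0.396). On the right end there were 44 against 24 (exact binomial test, adjusted p = 0.123). Replicate 1 had 22 against 7 there (exact binomial test, adjusted p = 0.545) and replicate 2 had 26 against 11 (exact binomial test, adjusted p = 0.285). The left and right ends of II were not shown to differ in the series list (exact binomial test, adjusted p = 0.825). The 46 windows of II beyond 600 kb had a median of 38.5 series-list peaks. Of the 50 windows of II, 26 held fewer series-list peaks than the left end and 31 fewer than the right. Only 7 and 12 held fewer than the windows behind these ends. Windows below the left end numbered 29 in replicate 1 and 26 in replicate 2, and 41 lay below the right end in replicate 2. In replicate 1 the right end window held more peaks than all 49 other windows of II. It was also the end with the best replicate support, since 27 of its 44 series-list peaks, or 61.4%, met both replicates. Sites met in both replicates came close to both tips of II. The peak from 586 to 1716 had a series score of 162 (percentile 96.8), a replicate 1 score of 104 (percentile 29.4) and a replicate 2 score of 2105 (percentile 86.2). The peak from 15265939 to 15266836, 5.95 kb from the last covered base, scored 146 (series list), 513 (replicate 1) and 1806 (replicate 2). The best-scoring shared peaks were from 159238 to 160057 on the left (series score 185, replicate 1 score 1125, replicate 2 score 3100) and from 15258376 to 15259039 on the right (series score 184, replicate 1 score 714, replicate 2 score 2194).

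The right end of chromosome IV had the largest ratio of the 10 ends in the series list, 5. It held 35 series-list peaks against 7 in the next 300 kb (exact binomial test, adjusted p = 0.00101), 8 against 1 in replicate 1 (exact adjusted p = 0.797), and replicate 2 had 15 against 3 (exact adjusted p = 0.198). On IV, 2 of the 58 tiled windows held fewer series-list peaks than those 7, while 29 held fewer than the 35 of the end window. Of the 7 peaks, the one from 17120978 to 17121425 met both replicates (series score 102). The end window itself had no replicate 1 peak in the better-scoring 50% of that list. Its best-scoring shared peak, from 17375495 to 17376194, scored 149 in the series list but 158 in replicate 1, which is percentile 42.5 there, and 1700 in replicate 2. The outermost shared peak, from 17426803 to 17427439, scored 139 (series list), 205 (replicate 1) and 1779 (replicate 2). The left end of IV held 30 peaks against 23 in the series list (exact binomial test, adjusted p = 0.635), 9 against 4 in replicate 1 and 19 against 9 in replicate 2. No series-list peak started closer than 36.5 kb to base 1 of IV, and the first shared site, from 51058 to 51683, was among the stronger ones at 133 (series list), 2154 (replicate 1) and 3100 (replicate 2). The best-scoring shared peak there, from 130077 to 130535, had 156, 186 and 1334 in those lists.

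On chromosome V the end windows held slightly more peaks than the windows behind them, with no call in any list. The left end held 24 peaks against 20 in the series list (exact binomial test, adjusted p = 0.844), 6 against 4 in replicate 1 and 14 against 10 in replicate 2. The right end held 38 against 28 (exact binomial test, adjusted p = 0.528), 11 against 9 in replicate 1 and 20 against 14 in replicate 2. The left end of V had 1 very strong site 9.01 kb from the tip, from 8473 to 9556, with a series score of 186 and a score of 3100 in both replicates. A small peak beside it, from 8097 to 8320 (series score 10.96), lay in the same replicate peaks and was the outermost shared one. Inward came a stretch of 75263 bp without a series-list peak, from 22104 to 97366. In replicate 1 that empty stretch ran from 11737 to 154930. The right end of V had no shared peak closer than 52.1 kb to the last covered base. That peak, from 20868246 to 20868731, was also its best-scoring shared one, at 125 (series list), 174 (replicate 1) and 1012 (replicate 2), and its series score was the lowest among the best shared peaks of the 9 ends other than X left.

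In the order of their series-list counts, the 10 ends ran from X right (64 peaks) and III right (62) through II right (44), II left (40), V right (38), IV right (35), IV left (30), V left (24) and III left (21) to X left (8). No end was shown to differ from the next in that order, except III left from X left (exact binomial test, adjusted p = 0.0480). Of the 45 pairs of ends, 23 (51.1%) were called different in the series list, against 50.7% of all pairs of 300 kb windows on the 5 chromosomes. The counts were 3 pairs (6.67%) against 6.89% in replicate 1 and 13 pairs (28.9%) against 23.2% in replicate 2. With all peaks of a list counted, these shares lay near the background, and nothing particular to the ends is read from them. X left was in 9 of the 23 pairs, in all 3 pairs of replicate 1 and in 8 of the 13 of replicate 2. Across the 10 ends the peak numbers of the replicates ran together (Pearson r = 0.90, Spearman rho = 0.92), which describes positions measured in lists of unequal length and not samples.

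**Figure D4:**
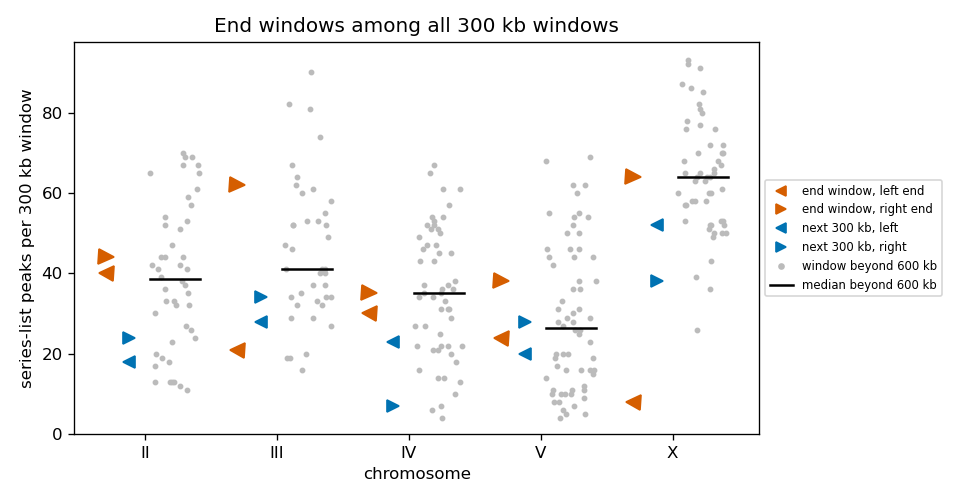
Series-list peaks per 300 kb window (vertical axis) for chromosomes II, III, IV, V and X (horizontal axis). Orange triangles are the end windows, blue triangles the next 300 kb (pointing left for the left end and right for the right end), grey dots all windows beyond 600 kb, and black lines the median of the grey dots. The left end of X, at 8, lies under every other window of X, whose median beyond 600 kb is 64, and the right end of X lies on that median.

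A grouping of the ends by meiotic pairing centre was also compared, as II right, III right, IV left, V left and X left against the 5 opposite ends. Of these sides only that of X is general knowledge held with certainty. The sides of the 4 autosomes were not checked against any source, so the counts describe these 2 sets of ends and are not read as values of pairing centres. The first set held 168 series-list peaks and the opposite ends 198, a ratio of 0.85 (0.69 to 1.05, exact binomial test, adjusted p = 0.194 over 6 tests). The counts were 57 and 58 in replicate 1 (exact binomial test, adjusted p = 1) and 89 and 94 in replicate 2 (exact binomial test, adjusted p = 0.921). X and III, whose ends differed in opposite senses, weighed most in the pooled value. Without X the series-list counts were 160 and 134, the other direction (exact binomial test, p = 0.145). The replicates without X had 55 and 38 (replicate 1, exact binomial test, p = 0.0966) and 87 and 60 (replicate 2, exact binomial test, p = 0.0316). Without III the series-list counts were 106 and 177 (exact binomial test, p = 2.90e-05), of which X gave 8 and 64. These omissions were chosen after the counts were seen, and their p-values are unadjusted, so no conclusion is drawn from them. For X alone, where the side is known, the centre lies toward the left end described above, with 8 peaks against 64 at the right end. Whether it lies within the outer 300 kb was not examined, so the 8 peaks are not read as a value of it.

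At the very tips the 2 replicates differed. Replicate 1 listed a peak that began at base 1 or 2 on the left tip of all 5 chromosomes, with widths from 660 to 2085 bp and scores from 72.2 to 188. Replicate 2 did so at 2 of the 5 left tips, on II (2 to 2067, score 2105) and X (1 to 687, score 63.2). Of the 6 end peaks of replicate 1 that met no replicate 2 peak, 3 were the tip peaks of III (2 to 714), IV (2 to 799) and V (2 to 876). At the right tips, replicate 1 had no peak closer than 1.28 kb to the last covered base on any chromosome, while replicate 2 reached that base on II, III and X, which is how the base was set there. Telomeric and subtelomeric sequence is repetitive, and how reads were mapped there was not tested. In the series list the peaks that touched a tip were weak: the left tips of V (1 to 176) and X (1 to 310) scored 3.31 and 4.36, and the right tips of IV and V 4.29 and 4.75. The right-tip peaks of IV and V themselves set the last covered base there, so their touching it follows from the rule.

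Within the end windows, the outer steps held more peaks than the innermost one. Summed over the 10 ends, the 6 successive steps of 50 kb from the tip held 68, 88, 59, 55, 60 and 36 series-list peaks, and the next 6 held 47, 42, 33, 53, 50 and 47. The step from 50 to 100 kb was the fullest in each list, with 33 peaks in replicate 1 and 42 in replicate 2. A single end, II right, gave 24 of its 88 series-list peaks, 13 of the 33 in replicate 1 and 12 of the 42 in replicate 2. The median per end of this step was 7 (series list), 2 (replicate 1) and 3.5 (replicate 2). In the outermost 50 kb the medians were 7, 2 and 3. The outermost 50 kb held 22 and 31 peaks in these replicates, and the step from 250 to 300 kb held 10 and 21. Peaks of the series list in the outermost 50 kb had a median score of 13.5, against 21.8 in the step from 50 to 100 kb. Replicate 2 had the same direction (384 against 788), and replicate 1 had the other (196 against 168). At the window edge, the last series-list peaks inside lay from 244 to 299 kb from their tips and scored 6.29 to 46.0. The first series-list peaks outside lay from 300.3 to 381 kb and scored 4.64 to 37.2.

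The share of better-scoring peaks was not shown to differ between the end windows and the next 300 kb. In the series list the median width of end peaks was 334.5 bp (interquartile range 229 to 520 bp), against 289.5 bp (212 to 424 bp) in the next 300 kb and 330.0 bp on the 5 chromosomes as a whole. The better-scoring 50% of the list made up 56.0% of the end peaks and 49.3% of those behind (Fisher's exact test, two-sided, with p adjusted over a family of 4 to 0.190). In replicate 1 the better-scoring 50% made up 40.9% and 52.3% (Fisher's exact test, adjusted p = 0.215), the other direction, and in replicate 2 50.3% and 47.8% (Fisher's exact test, adjusted p = 0.733). By end, this share ran from 25.0% at X left to 68.2% at II right in the series list. Peaks covered 5.15% of the end windows and 3.30% of the next 300 kb in the series list, 5.35% and 2.78% in replicate 1, and 9.58% and 6.24% in replicate 2. These are ratios of 1.56, 1.93 and 1.54, which are larger than the ratios of peak number.

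Replicate support was likewise not shown to differ. Of the 366 end peaks, 141 (38.5%, Clopper-Pearson 95% interval 33.5 to 43.7%) met a peak in both replicates, against 87 of 272 (32.0%, 26.5 to 37.9%) in the next 300 kb (Fisher's exact test, adjusted p = 0.190). A further 117 end peaks met replicate 2 alone, 5 met replicate 1 alone and 103 met neither. On the 5 chromosomes as a whole, 37.9% of the series-list peaks met both. Each series-list peak is counted singly, though 1 wide replicate peak can meet several. For example, 9 lay in the replicate 2 peak of 7253 bp at III right. The test and intervals above do not allow for this. Among end peaks, the 141 shared ones had a median width of 532 bp with a median score of 74.8 in the series list, and the 103 met in neither had 204 bp and 7.63. The share met in both was highest at II right (61.4%) and II left (47.5%), and lowest at V left (25.0%) and X left (12.5%, 1 of 8). Between the replicates, 109 of the 115 end peaks of replicate 1 (94.8%) met a replicate 2 peak, and 100 of the 183 of replicate 2 (54.6%) met one of replicate 1. How the reads behind the 3 lists are shared is not stated, so overlap between the series list and a replicate is not taken as an independent check.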

How the data were processed

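The authors deposited 3 peak lists, each with start, end and a peak score of unstated scale. Peaks were called with MACS for the replicates and MACS v2 for the series list, per the source column of the deposited files, on WormBase WS220, per the file headers. BWA and ce10 are named in the submitters' processing notes. Whether the series list pooled the reads, and whether input served as control, is not given in the sources used here. Scores were used within 1 list only. No genome of this build was used, so no sequence or gene is given.

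Windows of 300 kb were tiled from both tips to the middle of each chromosome by peak midpoint. The last covered base is a lower limit of the chromosome length. Neighbouring windows (268 pairs) and all pairs (38503) were compared by exact two-sided binomial tests with Benjamini-Hochberg adjustment over each table at 0.05. Overlap meant 1 bp. Python 3.11.15, scipy 1.17.1, numpy 2.4.6 and pandas 2.3.3 were used, and the code was tested on simulated data. Intervals are 95% and cover counting error only. Named peaks were, at each end, the highest-scoring and the outermost peak met in both replicates, plus the widest and the highest-scoring member of all. Every peak at X left, the strongest behind X left, the shared one behind IV right, the tip peaks and the widest replicate peaks were added after their values were seen. The windows, tests and rules were chosen with earlier results of these data known.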

Additional observations from a re-analysis of the deposited data

How the results depend on the processing

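The pooled excess of the end windows over the next 300 kb, a ratio of 1.35, kept its direction and passed the exact test in each of 18 alternatives. All 18 draw on the same 3 lists and on a test that counts peaks as independent, so they add no separate support. In the series list, 25.0% of all 268 neighbouring pairs had an unadjusted exact p under 0.05. The ratio ranged from 1.16 with 400 kb windows (exact p = 0.0331) to 1.77 in replicate 1 alone. It was 1.31 with peaks under 5 kb apart merged (exact p = 0.0424). Leaving out 1 end at a time, a choice made after seeing the data as were the other omissions and the 600 to 900 kb window, gave 1.25 to 1.63, the highest without X left. The 4 ends called (13.4% of all neighbouring pairs) were 2 with 200 kb windows (10.9% of pairs), 1 with the better-scoring 50% of peaks (1.49%), and 0 with merged peaks, where the exact test called 0% of pairs and 1 end had an unadjusted p under 0.05. In the replicate 1 list alone they were 0 (0% of pairs), and in the replicate 2 list alone 1 (0.373%). They were 4 with 400 kb windows (18% of pairs) and 3 with peaks met in both replicates (6.34%). The 23 called pairs of ends (51.1%, against 50.7% of all window pairs) became 16 with the better-scoring 50% (35.6% against 21.7%) and 21 with peaks met in both replicates (46.7% against 31.5%), both further above the background, a difference that was not tested. They were 17 with 200 kb windows (37.8% against 42.3%) and 19 with 400 kb windows (42.2% against 56.6%). With merged peaks the exact test called 0 (0 at an unadjusted p under 0.05, and 0% of all window pairs). The replicate 1 list alone gave 3 (6.67% against 6.89%) and the replicate 2 list alone 13 (28.9% against 23.2%). The autosome sides of the pairing-centre grouping were not checked, so its ratio of 0.85 describes 2 sets of ends and not pairing centres. That ratio was 1.01 among peaks met in both replicates (exact p = 1), 1.19 without X, 0.78 without II (exact p = 0.0492) and 0.60 without III (exact p = 2.90e-05). It was 0.95 to 0.98 in the replicates. The better-scoring share, 6.75 percentage points higher at the ends, had a difference of -11.4 in replicate 1 and was 2.51 higher in replicate 2. The share met in both replicates, 6.54 points higher, became 7.93 with 50% of the shorter peak covered (exact p = 0.0430), and 1.01 to 7.17 for a single replicate. The causes were not tested. Read depth is unknown, and replicate 1 has the fewest peaks, 1 to 22 per window compared. No paired analysis was possible because input peak lists are not analysed here, which leaves a single group of 2 ChIP samples. That limit concerns samples, meaning ChIP against input by replicate number. Windows are paired by end, and the end window was the higher at 8 of the 10 ends in each list. The pooled exact test sums the ends and does not use this pairing of windows.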
